A study of Mus musculus with 6 samples.

Results

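The kinetochore is the protein assembly that ties each chromosome to the spindle during mitosis, and 50 of its genes, with those of the spindle checkpoint that watches over it, were followed here in mouse chondrocytes, the cartilage cells. The members were taken by gene symbol from the 26969 genes of the deposited table. Their list was chosen with earlier results of these data known. All 50 were found, each as a single row, and all 50 passed the filter on low counts that left 17645 genes for testing. The series compares wild-type chondrocytes with chondrocytes that had received mitochondria, and its title names osteocytes as the source of the mitochondria. It holds 6 libraries of poly(A) RNA in 2 groups of 3. The labels contradict each other on which group is which. The samples described as mAC_Mito are titled vehicle and carry the treatment entry vehicle. Those described as mAC are titled mitochondrial and carry the treatment entry mitochondria, so title and treatment both go against the description. The groups are called mAC and mAC_Mito after the description, which also names the columns of the table. Differences are given as mAC_Mito minus mAC and never as an effect of mitochondria. Strain, age, passage, dose and time after transfer were not stated. The labels do not tie the replicates to separate cultures or animals, so the tests measure the spread between these libraries, and that spread may be technical.

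A kinetochore is built in layers. Nucleosomes with the centromeric histone CENP-A, placed by a dedicated chaperone, mark the site. The constitutive centromere-associated network (CCAN) sits on them through the cell cycle, and in mitosis it recruits the KMN network, whose Ndc80 complex grips microtubules. Unattached kinetochores recruit the checkpoint kinases and Mad proteins, which hold back Cdc20, the activator of the anaphase-promoting complex (APC/C), until all chromosomes are attached. The chromosomal passenger complex with the kinase Aurora B releases faulty attachments, and shugoshins protect the cohesion between sister centromeres. Most of these genes are transcribed chiefly from S phase to mitosis, so in bulk RNA of a culture their level follows the share of dividing cells. In such RNA fewer dividing cells and less RNA per dividing cell cannot be told apart.

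Total counts ran from 59116068 to 68378213 per library, and a member had between 260 and 11080 counts in a library. Chondrocyte markers were abundant in every library: the 8 genes of that list, such as Col2a1, summed to 1630 to 2588 FPKM (fragments per kilobase of gene model, scaled to depth, as deposited). Genes of the mitochondrial genome took 7.38%, 4.76% and 3.18% of reads counted across mAC 1, 2 and 3, against 5.66%, 2.95% and 3.44% across mAC_Mito 1, 2 and 3. Some markers of other cells were present too. The 8 macrophage and leukocyte markers summed to 63.8 to 82.0 FPKM in mAC and 71.3 to 115.9 FPKM in mAC_Mito, the 6 of skeletal muscle to 16.0 to 24.1 and 21.8 to 26.9 FPKM, and the 5 of adipocytes to 55.6 to 90.9 and 76.9 to 95.6 FPKM. These lists were uneven. The highest and the median gene had means of 66.95 and 1.55 FPKM among the macrophage and leukocyte markers. For muscle these means were 16.2 and 1.31 FPKM, and for adipocytes 45.1 and 12.6 FPKM. The 5 endothelial markers summed to at most 0.422 FPKM. The 5 osteocyte and osteoblast markers found summed to 6.96 to 8.88 FPKM in mAC and 7.75 to 9.73 FPKM in mAC_Mito. The highest and the median of these had means of 8.06 and 0.0632 FPKM, so a single gene made up most of the sum. Among the others, Dmp1 and Sost had 0 to 20 and 0 to 8 counts in a library.

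The members were lower in mAC_Mito in nearly all cases, by amounts too small for any of them to pass the test. Of the 50, 48 had a log2 fold change below 0, which is 96% against 49.6% of all 17645 genes tested. Their median log2 fold change was -0.15, or 1.11-fold lower in mAC_Mito, beside a median of 0.00159 over all genes tested, and the values ran from -0.35 for Bub1 to 0.05 for Cenpf. No member passed an adjusted p of 0.05 by edgeR's quasi-likelihood test with Benjamini-Hochberg adjustment over the whole table (adjusted p = 0.99992 for every member), where 0.0113% of genes did. DESeq2 and limma called no member either. At an unadjusted p under 0.05 by edgeR there were 9 members, 18% of the list, all lower in mAC_Mito, against 1.09% of all genes lower and 2.1% higher. They were Bub1, Birc5, Nuf2, Ndc80, Ska3, Spdl1, Sgo2a, Cdca8 and Ttk. Without mAC_Mito 3 that number was 4, with 0.749% of all genes lower.

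The levels of whole libraries show the same separation. Summed over the 50 members, the deposited values came to 428.6, 434.5 and 448.5 FPKM across mAC 1, 2 and 3, against 384.3, 403.6 and 388.4 FPKM across mAC_Mito 1, 2 and 3, so that each mAC library lay above each mAC_Mito library. As the mean over members of log2 CPM (counts scaled to depth by TMM) minus the mean of the 6 libraries, the level was 0.143, 0.057 and 0.049 across mAC 1, 2 and 3, against -0.049, -0.092 and -0.109 across mAC_Mito 1, 2 and 3. The highest of these, mAC 1, held the top value of 25 members, mAC 3 of 12, mAC 2 of 6, mAC_Mito 1 of 4 and mAC_Mito 2 of 3. The lowest value of a member was in mAC_Mito 3 for 19, in mAC_Mito 2 for 15 and in mAC_Mito 1 for 12. The library with the highest member level, mAC 1, also had the largest share of mitochondrial counts and the lowest sums of muscle, adipocyte and macrophage markers. The part of these in the result was not tested. Without mAC 1 the median log2 fold change was -0.14, with 45 members below 0.

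**Figure D1:**
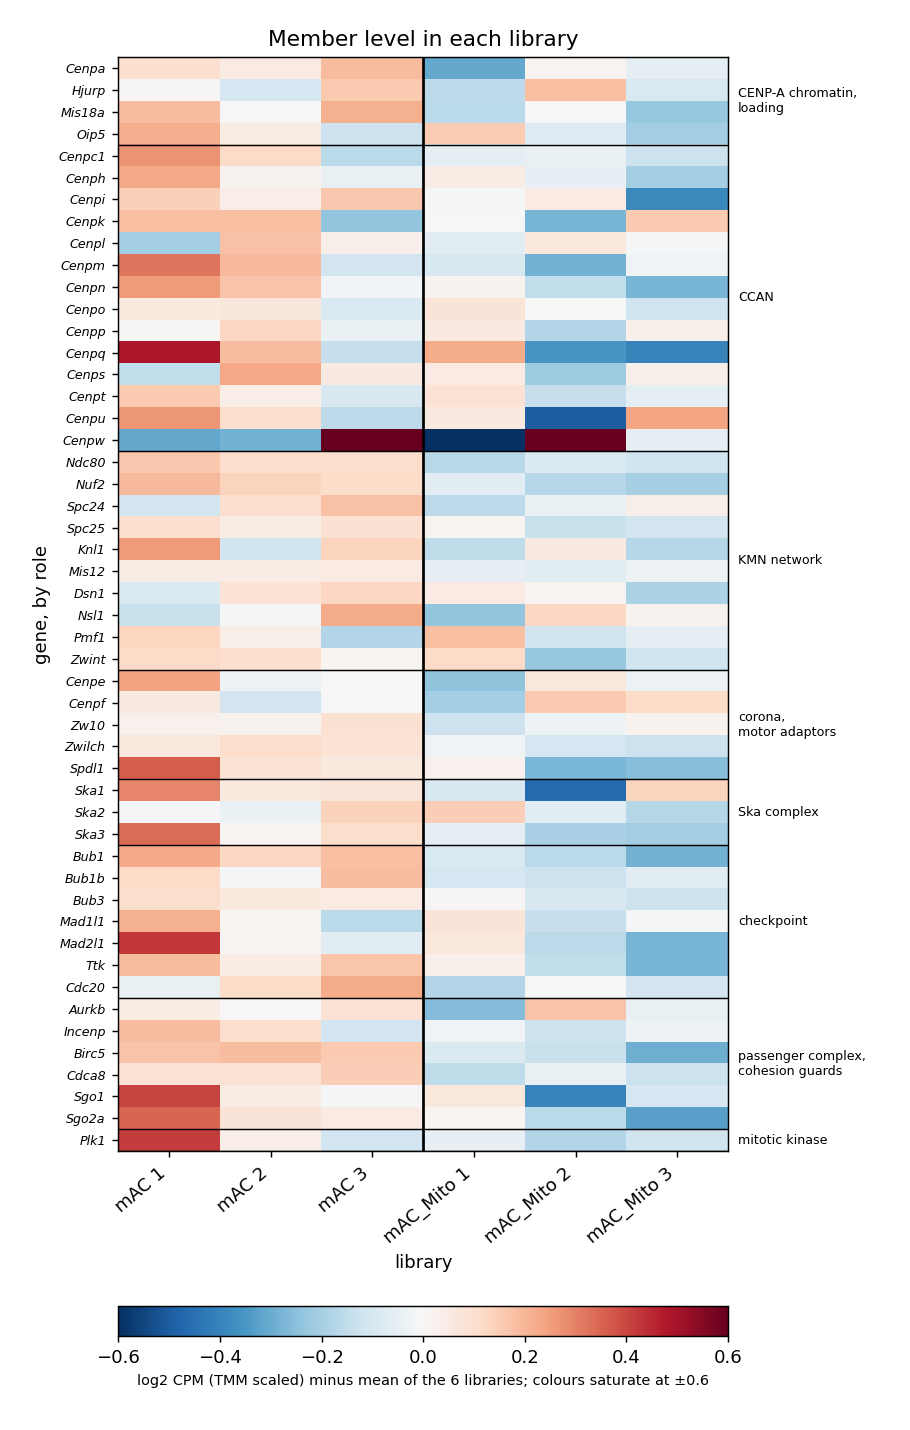
Level of the 50 members (rows, by role) in the 6 libraries (columns), as log2 TMM-scaled CPM minus the mean of the 6 libraries, with red above and blue below that mean. The mAC columns left of the line are mostly red and the mAC_Mito columns mostly blue, with Cenpw varying most between libraries of the same group.

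For 16 members, 32%, the 3 mAC_Mito libraries all lay below the 3 mAC libraries in TMM-scaled CPM, against 4.38% of all genes tested. No member was separated the other way, where 3.93% of all genes were. On the deposited FPKM the numbers were also 16 lower and 0 higher (3.54% and 3.76% of all genes), and 12 members were separated on both scales. Cenpa, Mis18a, Mis12 and Cdca8 were separated in TMM-scaled CPM but not in FPKM, and Cenpn, Cenph, Sgo1 and Plk1 in FPKM but not in TMM-scaled CPM. Without mAC_Mito 1 the groups did not overlap for 25 members, 24 of them lower in mAC_Mito, but 11.8% of all genes were then lower without overlap.

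**Figure D2:**
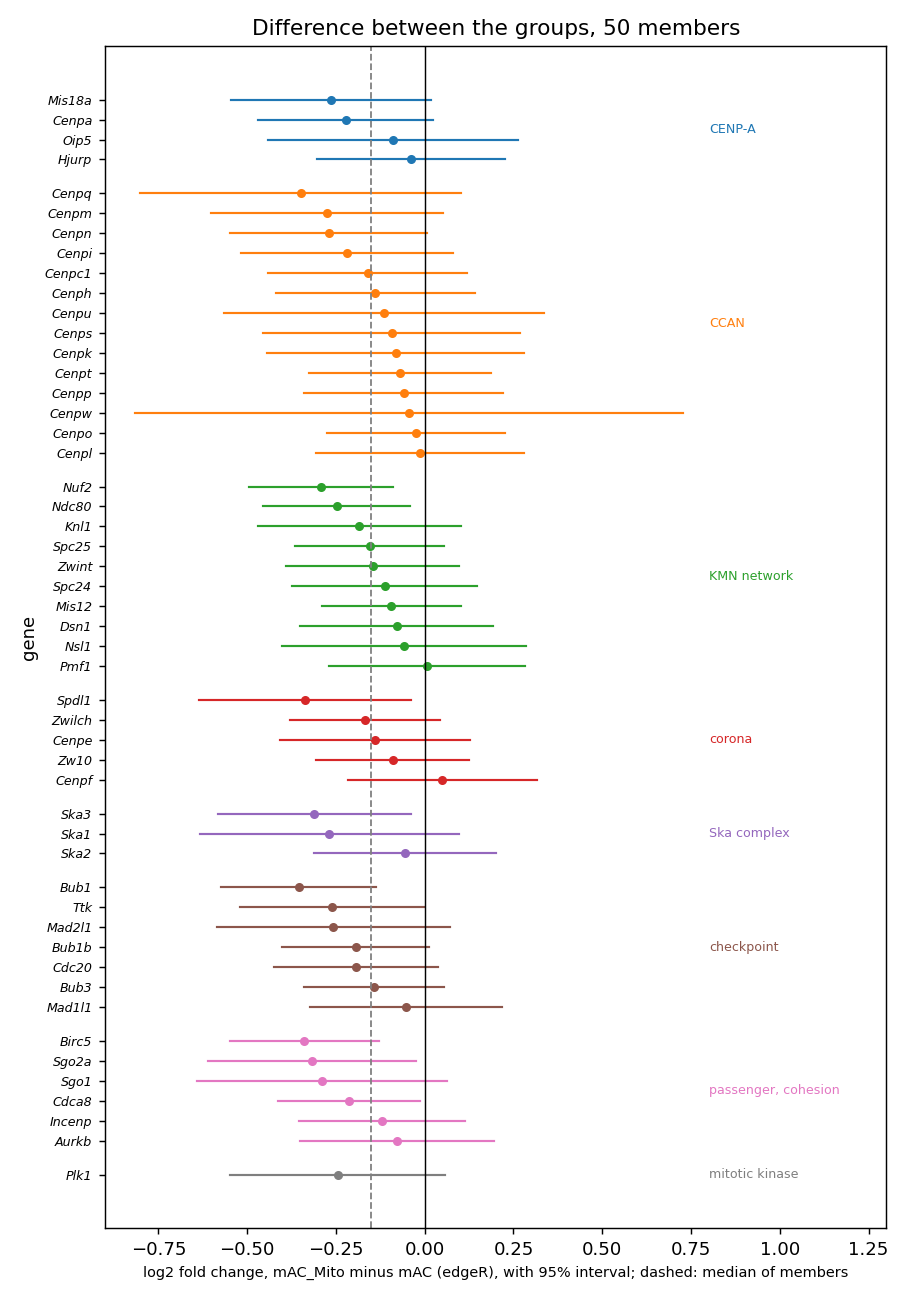
Log2 fold change of each member (points, mAC_Mito minus mAC, edgeR) with its 95% interval (lines), by role. Of the 50 points 48 lie left of 0, and the intervals of 9 members exclude 0 before any adjustment for the number of genes tested.

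The precision of these values set what could be seen. The 95% interval of a member's log2 fold change reached a median of 0.272 to either side, from 0.195 to 0.771. No interval reached -1, so a halving of any member in mAC_Mito lay outside its unadjusted interval.

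Among the checkpoint genes, all 7 were below 0, with a median log2 fold change of -0.19. Bub1, the kinase that anchors checkpoint proteins to the kinetochore, had the smallest p of all members. It was at 8.82, 8.83 and 9.52 FPKM across mAC 1, 2 and 3, against 7.27, 7.5 and 6.75 FPKM across mAC_Mito 1, 2 and 3. The groups did not overlap, and the difference was -0.35 with a standard error of 0.10 on the log2 scale (95% interval -0.57 to -0.14). Ttk, the kinase Mps1 at the head of the checkpoint, was at 4.5, 4.38 and 4.93 FPKM (mAC) against 4.15, 3.96 and 3.55 FPKM (mAC_Mito), again without overlap (log2 fold change -0.26, 95% interval -0.52 to -0.00). Bub1b, which encodes the Cdc20-binding protein BubR1, was at 14.9, 14.7 and 17.5 FPKM (mAC) against 13.3, 14.1 and 14.4 FPKM (mAC_Mito). Its highest mAC_Mito library was just below its lowest mAC library (log2 fold change -0.19). Bub3, the partner of both Bub proteins, was also separated, at 18.3 ± 0.651 FPKM (mAC) against 16.8 ± 0.395 FPKM (mAC_Mito; SD, n = 3).

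The Mad genes overlapped between the groups. Mad2l1, whose product binds Cdc20 directly, was at 11.2, 9.12 and 8.91 FPKM (mAC) against 9.02, 8.37 and 7.53 FPKM (mAC_Mito). It was highest in mAC 1, and without that library its log2 fold change of -0.26 was -0.09. Mad1l1, the kinetochore receptor of Mad2, was at 10.1, 9.45 and 8.62 FPKM (mAC) against 9.4, 8.77 and 9.42 FPKM (mAC_Mito), a log2 fold change of -0.05 that turned to 0.05 without mAC 1. Cdc20, the target of the checkpoint, had the highest level of all members, 42.5, 50.9 and 56.9 FPKM (mAC) against 39.9, 48.9 and 44.2 FPKM (mAC_Mito). Its spread within a group was as wide as the difference between the groups (-0.19, 95% interval -0.42 to 0.04).

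**Figure D3:**
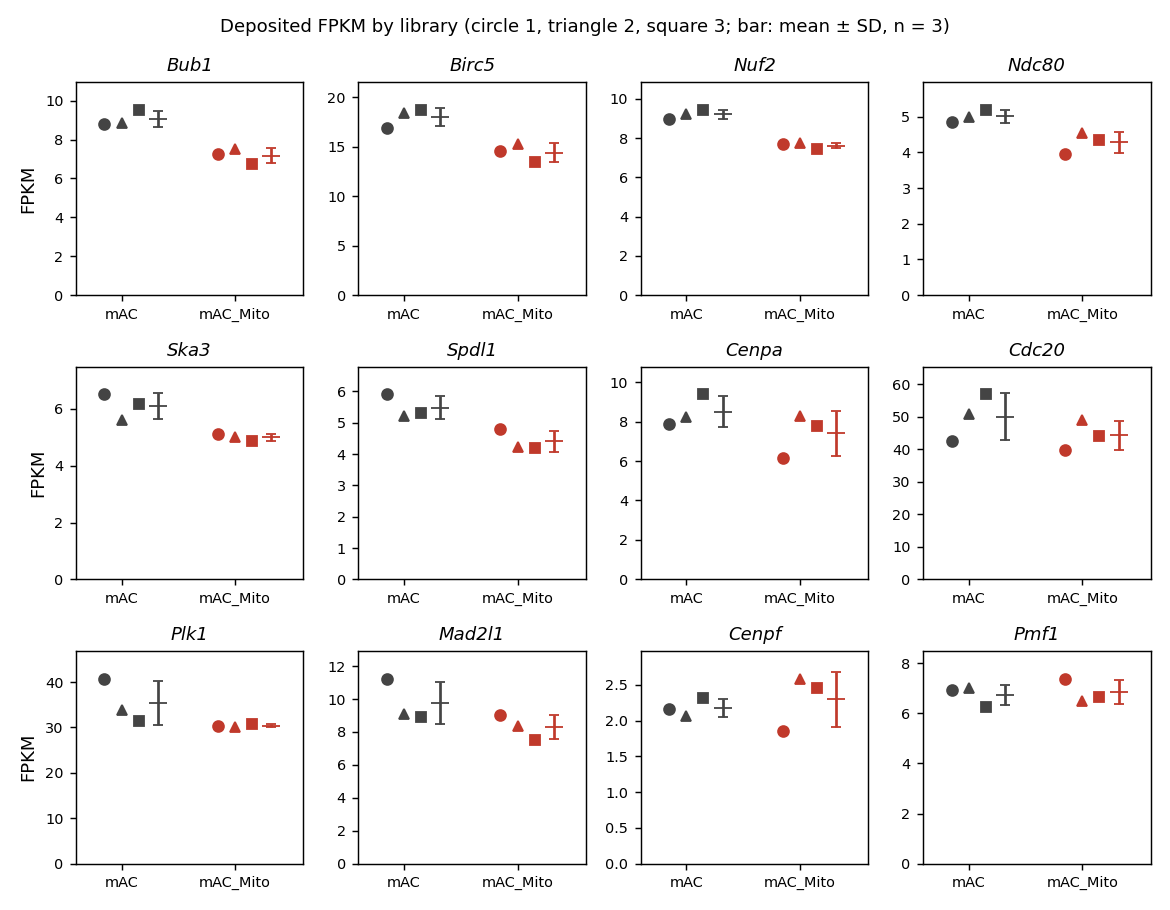
Deposited FPKM of 12 members in each library (symbols give the replicate number, bars the mean ± SD of 3 libraries, every axis starts at 0). Bub1, Birc5, Nuf2, Ndc80, Ska3, Spdl1 and Plk1 do not overlap between the groups, whereas Cenpa, Cdc20, Mad2l1, Cenpf and Pmf1 do.

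All 6 genes of the chromosomal passenger complex and of cohesion protection were below 0, with a median of -0.25. Birc5 encodes survivin, the subunit that brings the complex to the centromere. It was at 16.9, 18.4 and 18.7 FPKM across mAC 1, 2 and 3, against 14.5, 15.3 and 13.4 FPKM across mAC_Mito 1, 2 and 3, without overlap, and on the log2 scale the difference was -0.34 (standard error 0.09, 95% interval -0.55 to -0.13). Cdca8, or borealin, which pairs with survivin, was at 8.75, 9.42 and 10.1 FPKM (mAC) against 7.63, 8.9 and 8.23 FPKM (mAC_Mito) (log2 fold change -0.21). Aurkb, the kinase of the complex, was at 10, 10.5 and 11.5 FPKM (mAC) against 8.36, 12.2 and 10.3 FPKM (mAC_Mito), so that the highest and the lowest of its 6 values were both in mAC_Mito. Its log2 fold change was -0.08 and became 0.02 without mAC_Mito 1. Incenp, the scaffold, was at 14.7 ± 0.895 FPKM (mAC) against 13.7 ± 0.395 FPKM (mAC_Mito; SD, n = 3). Of the shugoshins, Sgo2a was at 3.6, 3.21 and 3.25 FPKM (mAC) against 2.93, 2.81 and 2.46 FPKM (mAC_Mito) (log2 fold change -0.32, 95% interval -0.61 to -0.03), and Sgo1 at 5.03 ± 0.529 FPKM (mAC) against 4.18 ± 0.525 FPKM (mAC_Mito; SD, n = 3). Sgo2a shares 35% of its exon bases with Kctd18 on the opposite strand, and the use of strand in counting is not known here.

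In the KMN network 9 of 10 genes were below 0, with a median log2 fold change of -0.13. The arms of the Ndc80 complex that touch microtubules differed most. Nuf2 was at 8.96, 9.25 and 9.43 FPKM across mAC 1, 2 and 3, against 7.69, 7.73 and 7.46 FPKM across mAC_Mito 1, 2 and 3. These groups lay apart by more than the range within either, and the log2 fold change was -0.29 (95% interval -0.49 to -0.09). Its dimer partner Ndc80 was at 4.84, 5.0 and 5.18 FPKM (mAC) against 3.96, 4.54 and 4.35 FPKM (mAC_Mito), likewise without overlap (log2 fold change -0.25, 95% interval -0.46 to -0.04). The other dimer of the same complex, which faces the chromosome, was closer between groups. Spc25 was at 12 ± 0.64 FPKM in mAC against 10.9 ± 0.166 FPKM in mAC_Mito (SD, n = 3), with a log2 fold change of -0.15. Its groups did not overlap either, in FPKM or in TMM-scaled CPM. Spc24 had a log2 fold change of -0.11 with overlapping groups.

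The remaining KMN genes differed less. Knl1, the scaffold on which Bub proteins assemble, was at 2.76, 2.3 and 2.83 FPKM (mAC) against 2.14, 2.68 and 2.24 FPKM (mAC_Mito), with overlapping groups. Mis12, which joins the network to the CCAN, was at 12.9, 13.9 and 14.4 FPKM (mAC) against 12.5, 13.3 and 13.4 FPKM (mAC_Mito). Its interval was narrow, at -0.29 to 0.10 around a log2 fold change of -0.09. Zwint, a Knl1 partner and the most abundant gene of the network, was at 19.6, 20.9 and 20.3 FPKM (mAC) against 20.2, 17.2 and 18.2 FPKM (mAC_Mito) (log2 fold change -0.15). Pmf1, a subunit of the Mis12 complex, was at 6.93, 6.99 and 6.25 FPKM (mAC) against 7.38, 6.5 and 6.67 FPKM (mAC_Mito), which gave the only value above 0 in the network, 0.0061. Dsn1 and Nsl1, the other subunits of that complex, had log2 fold changes of -0.08 and -0.06.

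The Ska complex and the outer corona were uneven. Ska3, a subunit of the complex that keeps kinetochores on depolymerising microtubules, was at 6.5, 5.62 and 6.18 FPKM (mAC) against 5.11, 5.02 and 4.87 FPKM (mAC_Mito), without overlap (log2 fold change -0.31, 95% interval -0.58 to -0.04). Ska1 had a log2 fold change of -0.27 with overlapping groups. Ska2 was at 9.65, 10.2 and 11.9 FPKM (mAC) against 11.1, 10.3 and 9.42 FPKM (mAC_Mito) and differed by -0.06. In the corona Spdl1, or Spindly, the adaptor that brings dynein to kinetochores, was at 5.91, 5.23 and 5.32 FPKM (mAC) against 4.8, 4.22 and 4.19 FPKM (mAC_Mito). The groups did not overlap (log2 fold change -0.34, 95% interval -0.64 to -0.04). Zwilch and Zw10 belong to the complex that recruits Spindly. Zwilch was separated at 6.81 ± 0.431 FPKM (mAC) against 6.14 ± 0.109 FPKM (mAC_Mito; SD, n = 3), while Zw10 overlapped, at 7.22, 7.74 and 8.41 FPKM (mAC) against 6.69, 7.73 and 7.86 FPKM (mAC_Mito). Cenpf, a large corona protein that is also used as a proliferation marker, was at 2.16, 2.07 and 2.31 FPKM (mAC) against 1.86, 2.59 and 2.45 FPKM (mAC_Mito). It had the highest log2 fold change of all members (0.05), with its lowest value, as its highest, in mAC_Mito. The kinetochore motor Cenpe had a log2 fold change of -0.14.

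At the centromere itself the 4 genes of CENP-A chromatin and its loading had a median log2 fold change of -0.16, and none had an unadjusted p under 0.05. Cenpa, the centromeric histone, was at 7.9, 8.21 and 9.38 FPKM across mAC 1, 2 and 3, against 6.13, 8.31 and 7.76 FPKM across mAC_Mito 1, 2 and 3. In FPKM only mAC_Mito 1 stood clearly below the other libraries. In TMM-scaled CPM the groups did not overlap, at 57.4, 55.4 and 61.2 (mAC) against 43.3, 54.2 and 51.7 (mAC_Mito). The log2 fold change of -0.22 became -0.14 without mAC_Mito 1. Hjurp, the chaperone that deposits CENP-A, was at 15, 15 and 18.6 FPKM (mAC) against 13.8, 18.9 and 15.4 FPKM (mAC_Mito), with a log2 fold change of -0.04. Mis18a, which licenses the site for deposition, was at 3.72, 3.51 and 4.23 FPKM (mAC) against 3.0, 3.63 and 3.05 FPKM (mAC_Mito) (log2 fold change -0.26), and Oip5, its partner in that complex, differed by -0.09.

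All 14 CCAN genes were below 0, with the smallest median of any role, -0.10, and no member separated the groups in TMM-scaled CPM. The lowest log2 fold change among them belonged to Cenpq, the most abundant CCAN gene, at 10.5, 9.16 and 7.57 FPKM (mAC) against 9.0, 6.51 and 6.2 FPKM (mAC_Mito). It varied 1.70-fold between libraries, and its interval was -0.80 to 0.10. Cenpn, which reads the CENP-A nucleosome, was at 5.86, 5.97 and 5.42 FPKM (mAC) against 5.13, 4.94 and 4.43 FPKM (mAC_Mito) (log2 fold change -0.27, 95% interval -0.55 to 0.01). Cenpc1, the CENP-C scaffold that bridges chromatin and KMN, was at 5.03, 4.87 and 4.16 FPKM (mAC) against 4.13, 4.51 and 4.17 FPKM (mAC_Mito), with 1 mAC library among the mAC_Mito values. At the other end Cenpl, the dimer partner of Cenpn, was at 1.58, 2.21 and 2.06 FPKM (mAC) against 1.79, 2.11 and 1.98 FPKM (mAC_Mito) and differed by -0.01. Cenpw, the least abundant member at 0.81 to 2.16 FPKM, varied 2.68-fold without regard to group. Its longest transcript, of 4143 bases, shares stretches of 230 to 345 bases at 95% identity or more with 9 other genes. Its counts may depend on how such reads were assigned, which was not tested. Mad2l1 and Ska2 also share a stretch at this identity with another gene. On the opposite strand Cenpu shares 26.7% of its exon bases with Primpol, Cenpo 19% with Adcy3 and Cenpp 12.3% with Ippk.

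**Figure D4:**
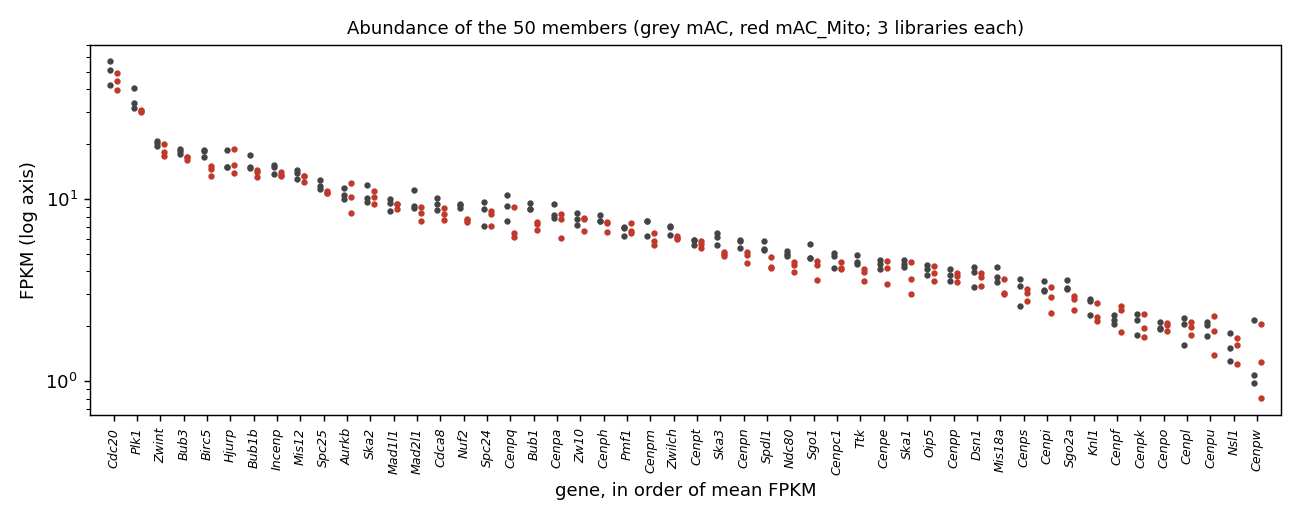
Deposited FPKM of the 50 members on a log axis, in order of mean level, with 3 mAC libraries in grey and 3 mAC_Mito libraries in red. Cdc20 and Plk1 stand above the rest, and the spread between members is far wider than the difference between the groups for any member.

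The members spanned a wide range of abundance per length. Cdc20 (mean over 6 libraries 47.2 FPKM) and Plk1 (32.9 FPKM) stood above Zwint (19.4), Bub3 (17.5), Birc5 (16.2) and Hjurp (16.1), and the lowest were Nsl1 (1.53) and Cenpw (1.40). Plk1, the mitotic kinase that acts on kinetochores throughout mitosis, was at 40.8, 33.8 and 31.4 FPKM (mAC) against 30.4, 30.1 and 30.7 FPKM (mAC_Mito). The mAC_Mito libraries agreed closely and lay below all 3 mAC libraries in FPKM, but mAC 1 carried most of the difference, and the log2 fold change of -0.25 was -0.08 without it. Subunits that act in equal numbers were not equal in FPKM. In the Ndc80 complex the means over 6 libraries were 4.64 FPKM for Ndc80, 8.42 for Nuf2, 8.25 for Spc24 and 11.4 for Spc25. In TMM-scaled CPM, which is not scaled to length, the order differed, with Nuf2 highest and Spc24 lowest in every library. The amounts of mRNA per subunit cannot be read from these values. By abundance, the 28 members with a mean of at least 5 FPKM had a median log2 fold change of -0.16 and 11 separated members, and the 22 below 5 FPKM had -0.13 and 5.

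Promoter sequence was not used to choose the members, but they were chosen as genes of mitosis, a class in which the motifs below are common. Higher shares among them therefore give no separate support to the list. Genes of late cell cycle phases often carry a CHR element (cell cycle genes homology region), a short site near the start that the DREAM and MuvB complexes bind, together with CCAAT boxes bound by NF-Y. The RefSeq promoter windows on GRCm38.p6, 250 bases before to 50 after the start, matched 44 members. Both strands were searched, each motif was counted on its own, and matches of different motifs were allowed to overlap. Matches were counted anywhere in the window, also far from the start, such as TTTGAA 162 bases before it for Cenpl. Each member gave a single window, while the shares for genes tested and for all genes count every window. The CHR letters TTTGAA were in 20 of the 44 windows (45.5%), against 12.4% of 15221 windows of genes tested here and 17.9% of all 32851. The CHR spelling TTCGAA was in 5 (11.4%, against 2.03% and 1.56%), and either spelling in 24 (54.5%, against 14.2% and 19.2%). CCAAT was in 30 (68.2%, against 37.5% and 37.4%). An E2F-like TTCCCGC was in 10 (22.7%, against 7.69% and 4.6%). These matches describe letters and not bound sites. Windows of 4 members are shown up to the start, 5′ to 3′, with matches in capitals: those with the smallest p (Bub1 and Birc5) and those with the highest level (Cdc20 and Plk1).
Bub1 (chr2:127831860-127832109, - strand): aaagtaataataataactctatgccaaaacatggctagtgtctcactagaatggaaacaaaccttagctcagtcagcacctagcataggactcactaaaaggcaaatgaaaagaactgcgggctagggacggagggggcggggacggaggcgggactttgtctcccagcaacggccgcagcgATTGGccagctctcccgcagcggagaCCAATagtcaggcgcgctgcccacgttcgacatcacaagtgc
Birc5 (chr11:117848987-117849236, + strand): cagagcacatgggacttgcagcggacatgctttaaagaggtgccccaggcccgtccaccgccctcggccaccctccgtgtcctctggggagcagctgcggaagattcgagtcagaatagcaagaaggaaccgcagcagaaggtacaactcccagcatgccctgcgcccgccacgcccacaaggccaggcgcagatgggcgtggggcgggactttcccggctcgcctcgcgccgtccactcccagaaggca
Cdc20 (chr4:118437344-118437593, - strand): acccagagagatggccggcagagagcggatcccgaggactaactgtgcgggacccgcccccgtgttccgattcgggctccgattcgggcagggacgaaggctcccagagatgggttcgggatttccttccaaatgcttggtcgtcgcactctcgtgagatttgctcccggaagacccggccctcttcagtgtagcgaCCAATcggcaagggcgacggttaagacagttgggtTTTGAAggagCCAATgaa
Plk1 (chr7:122159185-122159434, + strand): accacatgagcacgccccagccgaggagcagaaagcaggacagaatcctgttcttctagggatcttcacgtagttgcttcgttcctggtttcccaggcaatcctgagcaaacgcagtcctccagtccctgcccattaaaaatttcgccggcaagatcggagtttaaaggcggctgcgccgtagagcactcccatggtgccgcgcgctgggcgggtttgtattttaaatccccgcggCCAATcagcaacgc

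The windows differ. Cdc20 has CCAAT at 53 and 8 bases before the start and TTTGAA at 18 bases before it. Bub1 has a CCAAT box on each strand, at 68 and 42 bases before the start, and TTCGAA 15 bases into the transcript, outside the printed part. Plk1 has CCAAT at 14 bases before the start and TTTGAA at base 31 of the transcript. Birc5 holds none of these letters in the window, and Pmf1, whose window is not printed, holds TTTGAA at 135 bases before the start. Whether these letters go with the difference between the groups was not tested. The gene bodies, on GRCm38, are at chromosome 2, 127801122 to 127831865 for Bub1, chromosome 11, 117849251 to 117855743 for Birc5, chromosome 4, 118432901 to 118437352 for Cdc20 and chromosome 7, 122159439 to 122169873 for Plk1. Nuf2 lies on chromosome 1, 169497934 to 169531464 and Ndc80 on chromosome 17, 71496100 to 71526857. The 50 members lie on 20 chromosomes, with at most 6 on any of them.

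Genes around the kinetochore had a smaller median. Of 45 partner genes (other kinetochore, cohesin and microtubule proteins and the APC/C), 31 were below 0 with a median log2 fold change of -0.07, and none passed the adjusted threshold by edgeR. At an unadjusted p under 0.05 there were 2 lower and 1 higher, against 1.09% and 2.1% of all genes. The smallest p was that of Kif2c, the microtubule depolymerase that Aurora B controls, at 10.3, 10.5 and 11 FPKM (mAC) against 8.62, 8.99 and 9.17 FPKM (mAC_Mito) (log2 fold change -0.27, 95% interval -0.47 to -0.07). The 14 core subunits of the APC/C, the ubiquitin ligase that the checkpoint restrains, had a median of -0.07, with 9 below 0 and none at an unadjusted p under 0.05. In TMM-scaled CPM 4 of the 14 lay lower in mAC_Mito without overlap, against 4.38% of all genes, and in FPKM 0, against 3.54%. Cdc16, the most abundant of them, was at 50.1 ± 4.11 FPKM (mAC) against 47.9 ± 1.73 FPKM (mAC_Mito; SD, n = 3).

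No gene of mitotic entry or of replication passed an adjusted p of 0.05 by edgeR, but nearly all had log2 fold changes below 0. All 15 mitotic entry and spindle genes were below 0, with a median of -0.21, 5 at an unadjusted p under 0.05 (1.09% of all genes were lower at that level) and 6 lower without overlap in TMM-scaled CPM (4.38% of all genes). Prc1, which bundles the central spindle, was at 17.7, 18.6 and 17.5 FPKM (mAC) against 15.1, 14.7 and 15.2 FPKM (mAC_Mito) (log2 fold change -0.28, 95% interval -0.49 to -0.07), and the Cdk1 subunit Cks2, the most abundant, at 62.5 ± 9.48 FPKM (mAC) against 54.8 ± 8.97 FPKM (mAC_Mito; SD, n = 3). Their level was 0.214, 0.082 and 0.004 across mAC 1, 2 and 3, against -0.061, -0.128 and -0.111 across mAC_Mito 1, 2 and 3, highest in mAC 1 as for the kinetochore genes. Of the 15 replication genes 14 were below 0, with a median of -0.12, and 1 had an unadjusted p under 0.05. In TMM-scaled CPM 7 of them were separated, against 4.38% of all genes, but in FPKM 1, against 3.54%, so that this number moved with the scaling. For the kinetochore genes the number was 16 on each scale, but not for the same members: 12 were separated on both scales and 20 on either. These lists are set beside each other as descriptions, and a difference between them was not tested.

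**Figure D5:**
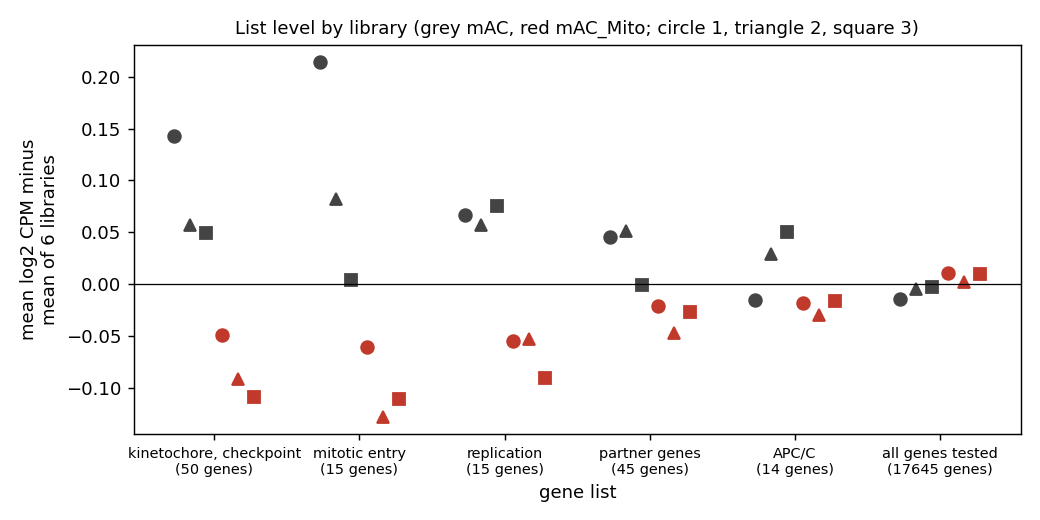
Mean over each gene list of log2 TMM-scaled CPM minus the mean of the 6 libraries, by library (grey mAC, red mAC_Mito). In all 5 gene lists every mAC library lies above every mAC_Mito library, for the APC/C by as little as -0.015 against -0.016, while over all genes tested every mAC library lies slightly below.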

How the data were processed

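Poly(A) RNA of 6 chondrocyte libraries was sequenced in pairs on an Illumina NovaSeq, per the labels' protocols, whose text speaks of an adipose type and so may describe other samples. The authors deposited raw counts per gene without normalization and FPKM computed from them, per the file headers. Bowtie 0.12.2, HISAT2 2.0, StringTie 1.3.0 and the build mm8 appear in the submitters' processing notes without roles; 41 of 50 members have the same coordinates in GENCODE M21 (GRCm38), so positions are those of GRCm38. Counting rule and use of strand: not given in the sources used here. Of the 50 members, 16 share exon bases with a gene on the opposite strand and none on the same strand.

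Counts were tested with edgeR 4.0.16 in R 4.3.3 (filterByExpr with minimum count 10 and total 15, TMM, quasi-likelihood F test, two-sided) with group as the only term, and p-values were adjusted over all genes by the Benjamini-Hochberg method. Standard errors and 95% intervals are those implied by the F statistic. Tested on simulated data, the fit recovered nearly all of the largest changes simulated and none of the smallest, which were nearer in size to those of the members, and its false calls were above the rate that the adjusted threshold allows; no member was called here. Alternatives were DESeq2 1.42.0, limma 3.58.1 on log2(FPKM + 1) and log2(FPKM + 0.1), other scalings and filters, a replicate block and each library left out. The list level uses a prior count of 2.

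The members and lists were chosen with earlier results of these data known. Values in every library are given for 14 central members and, in each role, for the member with the highest mean FPKM, the smallest p and the highest log2 fold change; other members were named after their values were seen. No test of a list as a whole was made. RefSeq windows of the same build gave the promoter letters.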

Additional observations from a re-analysis of the deposited data

How the results depend on the processing

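No member passed an adjusted p of 0.05 under any of the 16 other settings, and the smallest adjusted p of a member in any of them was 0.247 (without both libraries numbered 1, a setting added after the data were seen, as were scaling by total counts and by upper quartiles). Leaving out each library in turn, the median log2 fold change of the members ran from -0.183 to -0.135, the members below 0 from 44 to 47, those with an unadjusted p under 0.05 from 4 to 13 (0.749% to 2.47% of all genes were lower at that level), and those without overlap from 18 to 25, while the share of all genes lower without overlap rose from 4.38% to between 6.88% and 11.8% in these smaller groups. Genes called in the whole table ran from 0 to 4. Of 27 members followed through all settings, 20 kept their sign throughout. Those that did not have log2 fold changes near 0: leaving out a library gave -0.105 to 0.0737 for Cenpl, -0.141 to 0.052 for Mad1l1, -0.0185 to 0.148 for Cenpf, -0.146 to 0.0331 for Hjurp, -0.0939 to 0.0774 for Pmf1, -0.156 to 0.0131 for Ska2 and -0.194 to 0.0179 for Aurkb; the cause was not tested.

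With limma on log2(FPKM + 1), 5 members had an unadjusted p under 0.05, 1 gene was called in the whole table and Cenpl was at 0.00814; with log2(FPKM + 0.1) Cenpl was at 0.015. DESeq2 called 4 genes in the whole table, and no filter on low counts gave 0. Without both libraries numbered 1, 1 gene was called, 29 members did not overlap, where 19.4% of all genes were lower without overlap, and Hjurp, Pmf1 and Aurkb were at 0.0192, -0.0202 and 0.0236. The cause of these differences was not tested. The labels do not say whether the replicate numbers pair the samples. Same-numbered libraries had correlations of their deviations from the group mean of 0.124, -0.06 and -0.012, and differently numbered ones -0.14 to 0.154. With 3 libraries per group these values cannot decide whether samples were paired. With the replicate number as a block, 10 members had an unadjusted p under 0.05, against 9 without it, and none passed adjustment. The group overlap was not recomputed for RLE, DESeq2 and upper quartile factors. Every member had 260 counts or more in each library, and the 3 libraries per group limit the precision.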
